A study of Mus musculus with 2 samples.

Results

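The serpin genes are described here in the liver of 2 male C57BL/6J mouse samples, 1 labelled wild type and 1 labelled knockout of Drp1, the GTPase that divides mitochondria and is encoded by Dnm1l. Members were taken by name, as every gene probe of the array whose symbol begins with Serpin, a clade letter and a number, pseudogenes included. This gave 78 probes for 61 genes, out of 39429 probes and 30165 gene names on the array. The groups share strain, sex and diet: both were fed 24% lard fat (45% of energy) from an age of 4 weeks, over 24 weeks. The series title places the disruption in the liver. The deleted part of Dnm1l, the Cre driver, the number of mice behind each RNA and whether these livers were fasted or refed are not given in the sources used here. Each group had 1 array, so no difference below was tested, no p-value or SE is given, and animal and genotype cannot be told apart. Serpina1b is not among the members, and a probe that the array names Gm46 and RefSeq names Serpina16 was not a member either. That probe was not well above background on either array.

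Serpins are proteins of one fold, most of which trap a protease: the protease cuts an exposed reactive centre loop, the serpin changes shape, and both stay bound. Hepatocytes secrete many of them into plasma, among them the inhibitors of neutrophil elastase, thrombin, plasmin and complement, and the carriers of cortisol-type steroids and thyroxine, which use the fold without inhibiting a protease. Clade A and clades C to G hold mainly secreted proteins, while clade B proteins mostly stay in the cytosol. In mice the Serpina1, Serpina3, Serpinb1, Serpinb3, Serpinb6 and Serpinb9 groups have been duplicated several times.

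Because copies of a group are alike, what a probe can tell apart depends on its 60 bases, so the probes behind the main results are shown with their positions in the files' mm9 coordinates. The first pair are the probes of Serpina4-ps1, a pseudogene between Serpina12 and Serpina5 on chromosome 12 (105325060 to 105325119 and 105325068 to 105325127, plus strand). Capitals mark the 49 bases that both hold, so they are overlapping readings of one stretch and not independent ones.
Serpina4-ps1 probe at 105325060: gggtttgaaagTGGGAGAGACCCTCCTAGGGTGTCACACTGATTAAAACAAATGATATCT
Serpina4-ps1 probe at 105325068: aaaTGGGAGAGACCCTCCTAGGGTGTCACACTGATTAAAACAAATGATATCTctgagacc

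The Serpina1 copies are known to differ most in the reactive centre loop, and a probe of Serpina1a (chromosome 12, 105091979 to 105092038, minus strand) and one of Serpina1e (105185290 to 105185349, minus strand) lie on its coding bases. Capitals mark the 17-base run that both share, with different bases on either side.
Serpina1a: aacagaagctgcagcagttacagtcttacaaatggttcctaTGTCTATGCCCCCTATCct
Serpina1e: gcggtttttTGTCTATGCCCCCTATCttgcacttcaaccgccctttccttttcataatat
The second Serpina1a probe overlapped the Serpina1c probe by 51 bases, of which 50 were the same. The second Serpina1e probe was 6 single-base edits from that of Serpina1c, so these readings may share transcripts.

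The Serpina3h probe (105491733 to 105491792, plus strand) and a Serpina3i probe (105506705 to 105506764, plus strand) are shown because these neighbours differed in opposite directions between the arrays. This Serpina3i probe was well above background on the knockout array only, so the Serpina3i difference comes from its other probe, at 105504738 to 105504797, not shown. The probes shown are 11 single-base edits apart, and capitals mark the bases edited in each. These edits include a shift between the probes, which overlap without gaps over 57 bases with 6 mismatches.
Serpina3h: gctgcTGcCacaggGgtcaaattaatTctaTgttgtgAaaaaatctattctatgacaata
Serpina3i: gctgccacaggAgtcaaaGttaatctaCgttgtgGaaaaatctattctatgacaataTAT

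In clade B, 30-base windows of the Serpinb6a probe (chromosome 13, 34009796 to 34009855, minus strand) and a Serpinb6c probe (33971686 to 33971745, minus strand) show how close those genes are. Capitals mark the mismatches, which were 4 over the 59 bases in which the full probes overlap.
Serpinb6a: tgcaatgGcaATtatgaaataaagggcttT
Serpinb6c: tgcaatgAcaGCtatgaaataaagggcttA
The window below is from the probe of Serpinb8 (chromosome 1, 109504865 to 109504924, plus strand), with alternating G and T in capitals.
Serpinb8: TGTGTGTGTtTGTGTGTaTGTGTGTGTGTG
The full probe, of which this is a part, holds an unbroken run of 14 alternating bases. GT repeated 7 times in a row stood in 79 of the 39429 probes (0.200%). That search misses runs of 14 that start with T, as this one does.

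Signals are fluorescence intensities. Each was divided by the 75th percentile of its own array, so a level of 1 equals that percentile, and a difference is the log2 level in the knockout minus that in the wild type. A probe counts as measured where it was well above background. The wild type array measured 19923 probes (50.5%), the knockout array 22521 (57.1%), and 15385 genes were measured on both. The 75th percentile was an intensity of 461 in the wild type and 722 in the knockout, a ratio of 1.57. Spots of the same probe had an SD of 0.11 (wild type) and 0.083 (knockout) on the log2 scale over 241 probes, which makes the SD of a difference 0.14, or 1.1-fold. This is measuring error within an array and says nothing of variation between mice. A gene is called higher or lower here from 1.5-fold, with 2-fold beside it. Dnm1l itself differed by -0.21, with a level of 2.03 in the wild type and 1.75 in the knockout, through 1 probe whose place relative to the deletion the labels do not give, so it does not check them.

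More serpins were lower in the knockout than higher, and the secreted clade A genes made up most of them. Of the 61 genes, 35 were measured on both arrays, 3 on the knockout array only, 2 on the wild type array only and 21 on neither. Among the 35, 15 were at least 1.5-fold lower (13.4% of all measured genes were), 4 at least 1.5-fold higher (8.42% of all) and 16 lay between. At 2-fold, 5 were lower (3.64% of all) and 1 was higher (2.91% of all). The median difference was -0.47, against -0.11 over all measured genes. The lower side of this depends on how the arrays are scaled: with quantile normalization 5 were higher and 9 lower (median -0.023), with loess normalization 5 and 8 (median -0.14), and with scaling to the spike-in spots 13 and 3 with a median of 0.31. The median of all genes was -0.032 under quantile normalization, slightly below that of the serpins. It was 0.0045 under loess normalization and 0.67 under the spike-in scaling, above that of the serpins. In the authors' value table the medians were about equal, at -0.023 for serpins and -0.021 for all genes. Under the spike-in scaling 8946 of all 15385 genes were higher and 209 lower, so 13 of 35 serpins higher is a smaller share than among all genes. In bulk RNA, fewer cells of a type and less RNA per cell cannot be told apart.

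**Figure D1:**
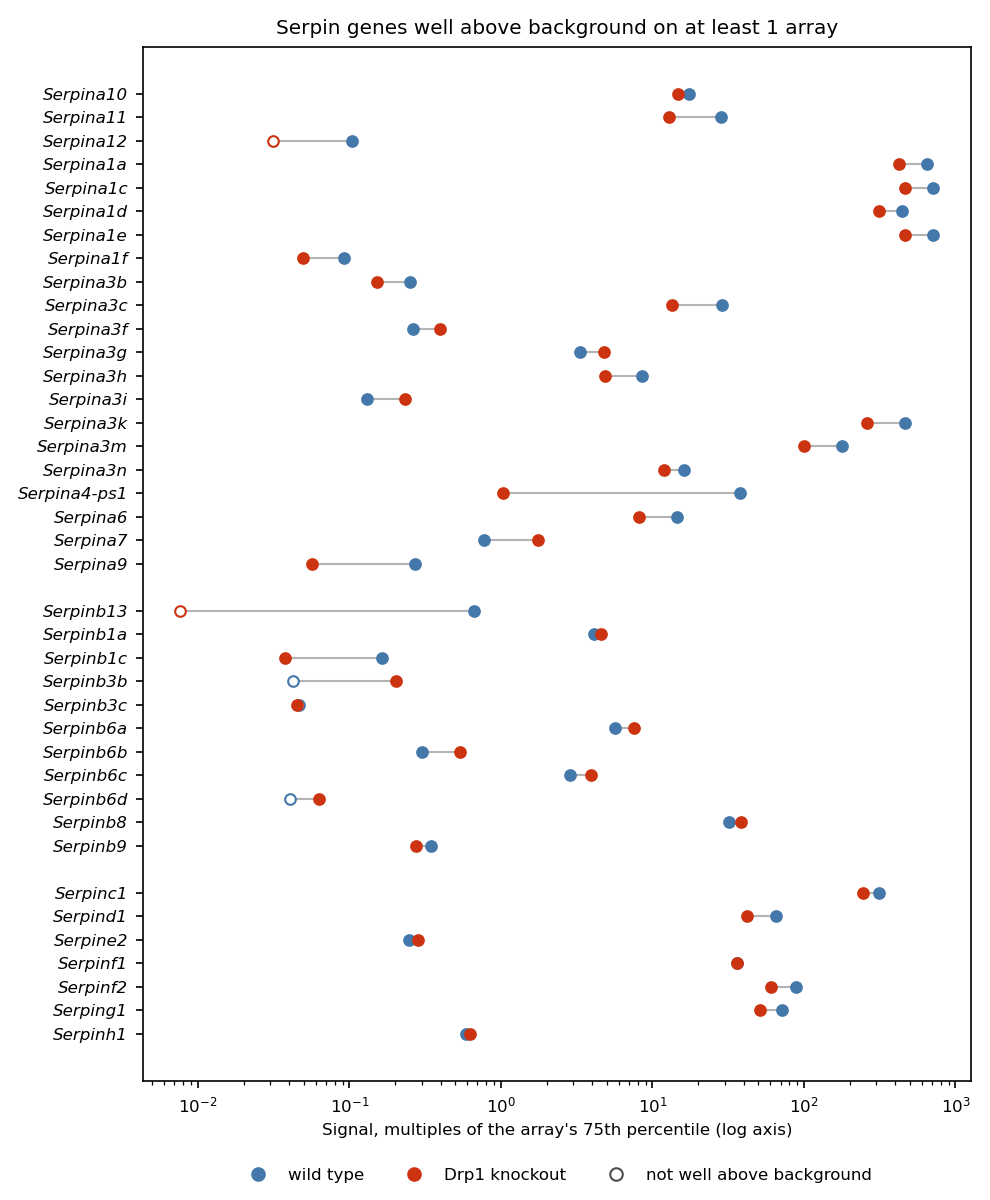
Level of each serpin gene on the wild type (blue) and the Drp1 knockout array (red), in multiples of the array's 75th percentile on a log axis, for the genes measured on at least 1 array apart from 1 not shown, grouped as clade A, clade B and clades C to H. Open points were not well above background. The widest gap between 2 measured points is that of Serpina4-ps1, from 38.1 to 1.03, and the line of each gene joins its own 2 values (levels of different genes come from different probes and are not comparable).

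The Serpina1 genes encode alpha-1-antitrypsin, the plasma inhibitor of neutrophil elastase, and their probes were among the brightest on both arrays. The level of Serpina1a was 645 in the wild type and 421 in the knockout, a difference of -0.61. For Serpina1c the levels were 710 and 461, for Serpina1e 713 and 463, both at -0.62, and for Serpina1d 446 and 311, at -0.52. All 7 probes of these 4 genes differed by between -0.67 and -0.47, and the gene values differed from each other by no more than about the spread between their own probes. Because the similar probes of Serpina1a, Serpina1c and Serpina1e may share transcripts, as described above, these are not separate readings of each copy. The intensities before scaling were nearly equal: 411767 and 405373 for the brighter Serpina1a probe, and 327188 and 332564 for Serpina1c. The scaled differences are thus close to the ratio of the arrays' 75th percentiles, and they came to -0.042 for Serpina1a, 0.012 for Serpina1c and 0.0090 for Serpina1e under quantile normalization. Serpina1f, a more distant member of the group, was dim, at 0.092 and 0.049, a difference of -0.90 that passed 1.5-fold in 5 of 7 other processing settings.

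The Serpina3 genes are the mouse relatives of antichymotrypsin, and they differed in both directions. Serpina3c, also named kallikrein-binding protein, was at 28.7 in the wild type and 13.5 in the knockout, 2.13-fold lower. Serpina3k, an abundant plasma serpin of the liver, had levels of 466 and 261 (-0.84), and Serpina3m, its neighbour, 179 and 100 (-0.83). Serpina3h was at 8.48 and 4.87 (-0.80) and Serpina3b at 0.252 and 0.153 (-0.72). These 5 genes were lower by at least 1.5-fold, but Serpina3k and Serpina3m were at -0.32 and -0.47 under quantile normalization. Serpina3n, an extracellular inhibitor of granzyme B that is known as an acute-phase gene, was at 16.1 and 11.8, a difference of -0.44 that stayed under 1.5-fold.

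In the opposite direction, Serpina3i was at 0.130 in the wild type and 0.233 in the knockout, 1.79-fold higher, and its second probe was well above background on the knockout array only and gives no difference. Serpina3f was at 0.261 and 0.394, 1.51-fold higher, with its probes at 0.51 and 0.68. Serpina3g, an inhibitor of cathepsins in the cytosol and nucleus of leukocytes, was at 3.32 and 4.77, a difference of 0.53. Serpina3f and Serpina3g lie close to 1.5-fold: under quantile normalization they were at 0.55 and 0.66, and Serpina3i was at 0.30 with normexp background correction. One probe listed for Serpina3f maps beside the Serpina3h probe (105492556 to 105492615) and the other at 105458989 to 105459048, so which copy the former reads was not tested. Serpina3a and Serpina3j were not well above background on either array.

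Serpina4-ps1 gave the lowest difference of all 15385 measured genes. Its level was 38.1 in the wild type and 1.03 in the knockout, a difference of -5.20 or 36.8-fold. The probes differed by -5.18 and -5.23, from intensities of 21034 and 14618 in the wild type to 912 and 611 in the knockout. Both stayed well above background in the knockout. Across the 8 other processing settings the value ranged from -5.20 to -5.02, and it was -4.42 under the spike-in scaling. Its neighbours among the serpins of the array were Serpina12, measured in the wild type only, and Serpina5, the protein C inhibitor, which was not well above background on either array.

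Serpina9, known from germinal centre B cells, and Serpina11, a liver gene, were lower as well. Serpina9 was dim, with levels of 0.270 and 0.0563, a 4.79-fold difference that was -1.31 on the log2 scale with normexp background correction. Serpina11 was at 28.4 and 12.8, 2.22-fold lower. Its probes gave -1.16 and -1.14, but they overlap by 57 bases, of which 53 match. Serpina12, which encodes vaspin, a protease inhibitor known as an adipokine, was at 0.104 in the wild type and not well above background in the knockout, at least 2.83-fold lower.

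The hormone carriers went in opposite directions. Serpina6, corticosteroid-binding globulin, was at 14.4 in the wild type and 8.2 in the knockout, 1.76-fold lower, with probes at -0.89 and -0.75. Serpina7, thyroxine-binding globulin, was at 0.778 and 1.75, which made it the 1 serpin at least 2-fold higher (2.25-fold). It is also the 1 clade A member of the array off chromosome 12, on chromosome X (135615848 to 135616502, minus strand). Its 60-base probe covers 655 bases of the genome and so reads spliced RNA:
Serpina7: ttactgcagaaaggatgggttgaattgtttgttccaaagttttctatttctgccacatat
Across the 8 other processing settings Serpina7 stayed between 1.04 and 1.2, and Serpina6 between -0.89 and -0.61. Under the spike-in scaling they were at 1.95 and -0.04, so Serpina6 was no longer lower. Serpina10, which inhibits factor Xa with protein Z as cofactor, was at 17.5 and 14.6, and its probes differed from each other, at -0.48 and -0.04.

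**Figure D2:**
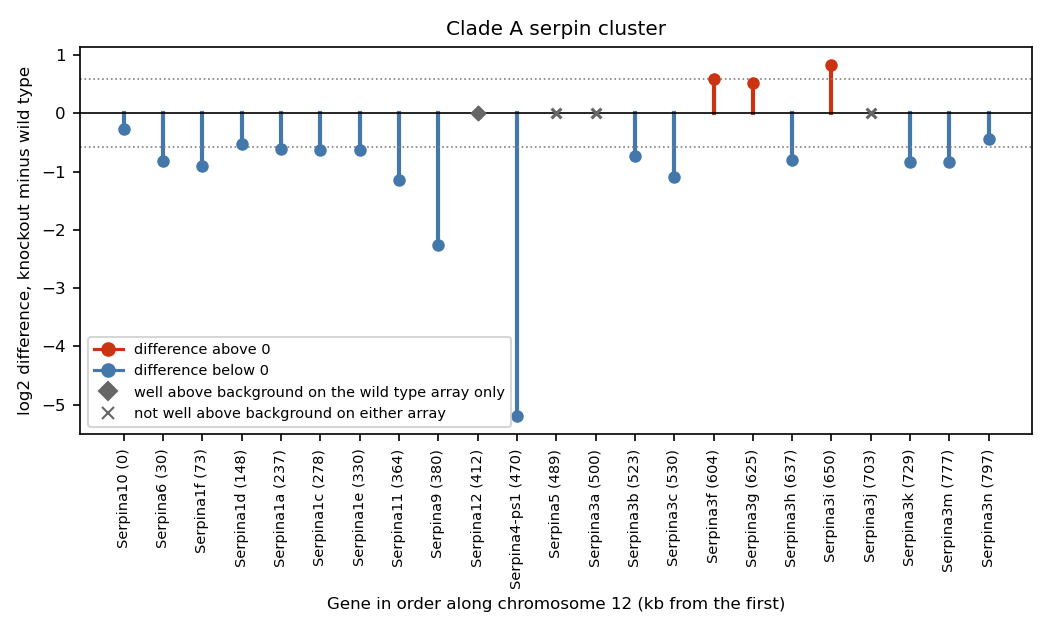
Log2 difference, knockout minus wild type, of the 23 clade A genes of chromosome 12 in their order, with the distance in kb from the first in brackets (for genes with several probes, the first probe). Dotted lines mark 1.5-fold. Differences were below 0 for 16 of the 19 genes measured on both, and for 9246 of all 15385 measured genes. They were above 0 for the neighbours Serpina3f, Serpina3g and Serpina3i, with Serpina3h between them at -0.80. Under quantile normalization Serpina1c, Serpina1d and Serpina1e were above 0 too, and under the spike-in scaling most were.

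Along chromosome 12 the clade A genes of the array span 797 kb, and position went with direction only in part. Of 19 genes measured on both arrays, 13 were at least 1.5-fold lower (13.4% of all measured genes were) and 2 higher (8.42% of all), with a median of -0.72. The genes above 0 all lay between 604 and 650 kb from Serpina10, the first gene. Within the same stretch Serpina3h, 637 kb from Serpina10, was lower.

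Promoters were read from RefSeq (GRCm38.p6) as the 250 bases before each transcript start, for the 49 of 61 members in that table. Those of Serpina3f, Serpina3g and Serpina3i are shown because these were the clade A genes of chromosome 12 with differences above 0, though Serpina3g did not reach 1.5-fold, and they were chosen after their values were seen. Capitals mark TTCNNNGAA, the letters of a STAT binding site, searched on both strands.
Serpina3f, chr12:104214294-104214543, plus strand: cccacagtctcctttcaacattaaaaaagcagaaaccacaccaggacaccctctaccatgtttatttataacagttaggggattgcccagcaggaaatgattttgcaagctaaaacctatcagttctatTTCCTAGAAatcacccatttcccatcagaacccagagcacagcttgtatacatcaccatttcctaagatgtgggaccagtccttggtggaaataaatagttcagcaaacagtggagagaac
Serpina3g, chr12:104235897-104236146, plus strand: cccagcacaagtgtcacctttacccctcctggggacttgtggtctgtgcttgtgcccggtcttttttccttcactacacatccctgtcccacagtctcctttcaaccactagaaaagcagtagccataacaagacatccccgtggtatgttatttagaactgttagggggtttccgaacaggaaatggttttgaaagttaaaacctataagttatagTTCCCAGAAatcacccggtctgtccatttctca
Serpina3i, chr12:104262872-104263121, plus strand: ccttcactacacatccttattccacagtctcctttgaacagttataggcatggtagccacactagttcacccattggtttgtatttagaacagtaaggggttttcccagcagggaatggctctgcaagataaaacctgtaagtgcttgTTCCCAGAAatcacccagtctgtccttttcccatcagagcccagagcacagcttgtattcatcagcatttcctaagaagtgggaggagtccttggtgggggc
In all 3 the letters are followed by the same bases, atcaccc, so matches in these duplicated copies are not separate. These letters stood in the promoters of 8 of the 49 serpins (16.3%), such copies included, and of 2197 of 27025 genes (8.13%). The other 5 serpins were Serpina11 and Serpina1f, both lower in the knockout, Serpinb6a, which was between, and Serpinb2 and Serpinb9c, not measured. Of the other Serpina3 genes in the table (Serpina3a, Serpina3b, Serpina3c, Serpina3j and Serpina3n) none held them. Serpina3h, Serpina3k and Serpina3m, all lower, are not among these, and a relation of the letters to direction was not tested. The interferon response element, a pair of GAAA blocks with any 2 bases between them, stood in Serpinb6a and Serpinb9, 4.08% of the serpins and 3.46% of all genes, and the HNF1 motif, GTTAAT and ATTAA with 1 base between, in 0 of 49 and in 0.0740% of all. A match is a description of letters, and no match says nothing of the factor.

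Most clade B genes were not detected or were dim in these livers. Of 27 genes, 7 were measured on both arrays and 16 on neither. Of the 7, 1 was at least 1.5-fold higher (8.42% of all measured genes were) and 1 lower (13.4% of all), with a median of 0.25. Over the whole array 7.20% of genes were measured in the knockout only and 1.25% in the wild type only. In clade B these were Serpinb3b, Serpinb3c and Serpinb6d for the knockout and Serpinb13 for the wild type.

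The Serpinb6 group, cytosolic inhibitors of cathepsin G and related proteases, had 3 genes measured on both arrays. All 3 had differences above 0, as had 6139 of all 15385 measured genes, and 1 of them was past 1.5-fold. Serpinb6b was at 0.30 in the wild type and 0.537 in the knockout, 1.79-fold higher. Serpinb6a was at 5.62 and 7.56 (0.43) and Serpinb6c at 2.87 and 3.92 (0.45), with the near-identical probes shown above. Serpinb6d was at 0.0632 in the knockout and not well above background in the wild type, at least 1.07-fold higher, and Serpinb6e was measured on neither array. With normexp background correction Serpinb6b came to 0.56, just under 1.5-fold.

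Serpinb1a, an inhibitor of neutrophil elastase within leukocytes, was nearly equal, at 4.12 and 4.6. Its copy Serpinb1c was at 0.163 and 0.0378, 4.32-fold lower, through 1 dim probe (chromosome 13, 32975867 to 32976102, minus strand) that spans 236 bases of the genome.
Serpinb1c: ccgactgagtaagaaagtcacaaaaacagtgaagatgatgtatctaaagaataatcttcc
With normexp background correction, which alters dim signals most, Serpinb1c differed by -1.03 in place of -2.11. Serpinb9, the cytosolic inhibitor of granzyme B, was at 0.344 and 0.274 (-0.33). Serpinb8, whose probe has the GT repeat, was at 32.2 and 38.3 (0.25).

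Serpinb13, an epithelial inhibitor of cathepsins, was at 0.665 in the wild type and 0.0076 in the knockout, at least 18.1-fold lower against the lowest signal called well above background. Of 12 keratinocyte genes, listed after this value was seen, 8 were on neither array well above background, among them Krt5, Krt14 and Krt1. The other 4 differed in both directions: Trp63 by -0.60, Krt10 by -0.27, Sbsn by 0.38 and Lor by 0.94. These differences largely cancel in the summed level, which was 3.20 in the wild type and 3.18 in the knockout. The sum is therefore no reading of keratinocyte content. Of 9 skeletal muscle genes, 8 were measured on the wild type array only, with a summed level of 7.33 in the wild type and 0.135 in the knockout. The part of other tissue in the Serpinb13 reading was not tested. Serpinb3b, of the squamous cell carcinoma antigen group, was the reverse, at 0.0423 and not well above background in the wild type and 0.203 in the knockout, at least 3.43-fold higher. Its probe (chromosome 1, 109051288 to 109051347, minus strand) is shown since the result rests on it alone.
Serpinb3b: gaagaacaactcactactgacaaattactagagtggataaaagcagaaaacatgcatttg
Serpinb3c was spotted 10 times and read 0.0468 and 0.0451, with spot SDs of 0.41 and 0.31 on the log2 scale, at the edge of detection on both arrays.

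The single-copy plasma serpins of clades C to G mostly had differences below 0 that stayed under 1.5-fold. Of all 15385 measured genes, 9246 were below 0. Antithrombin (Serpinc1), the main plasma inhibitor of thrombin, was at 314 in the wild type and 244 in the knockout (-0.36). Heparin cofactor II (Serpind1) was at 64.9 and 41.7, 1.56-fold lower, and at -0.31 under quantile normalization. Alpha-2-antiplasmin (Serpinf2) was at 89.0 and 60.9 (-0.55), and C1 inhibitor (Serping1), which restrains complement and kallikrein, at 71.3 and 51.4 (-0.47, probes at -0.60 and -0.34). The signs depend on the scaling: Serpinc1 was at 0.13 under quantile normalization, and under the spike-in scaling Serpinc1 was at 0.42, Serpind1 at 0.14, Serpinf2 at 0.23 and Serping1 at 0.31.

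The other measured serpins of clades E to H were near 0 or above it. Serpine2, protease nexin 1, was at 0.246 and 0.282 (0.20), and Serpinh1, the collagen chaperone Hsp47, at 0.585 and 0.621 (0.09). Serpinf1, pigment epithelium-derived factor, was at 36.2 and 35.9, with its brighter probe at -0.30 and the other at 0.27. It was the 1 gene of 11 with several measured probes whose probes disagreed in sign. The neuronal and pancreatic Serpini1 and Serpini2 were on neither array well above background. Agt, which encodes angiotensinogen and has the serpin fold under another name, was at 17.3 and 12.8 (-0.44).

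**Figure D3:**
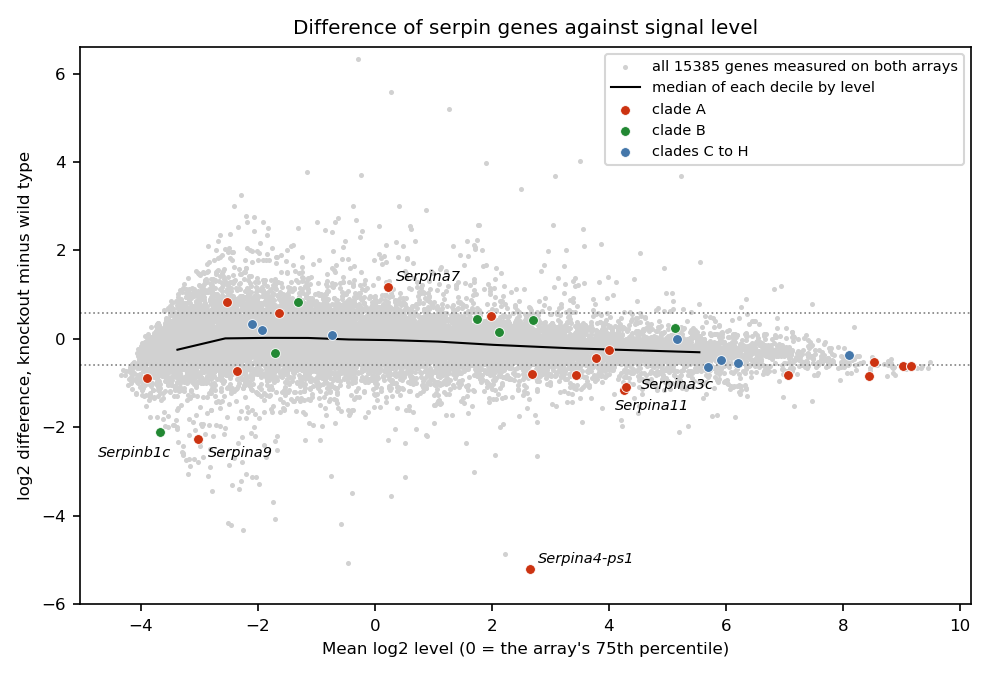
Log2 difference, knockout minus wild type, against the mean log2 level of both arrays, for all 15385 measured genes (grey) and the 35 measured serpins by clade (coloured), with 1.5-fold dotted and the median of each decile of genes by level as a line. The line falls to -0.30 in the brightest decile, where 12 serpins lie, and Serpina4-ps1 at -5.20 lies below every other gene.

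The differences of all genes varied with how bright the genes were, and were lowest at both ends. In the brightest decile of all measured genes, which held 12 of the 35 serpins, the median difference was -0.30, and in the next decile, which held 8, it was -0.22. In the dimmest decile, which held Serpina1f, Serpina9 and Serpinb1c, all lower in the knockout, it was -0.25, while in the second to sixth deciles it lay between -0.030 and 0.021. Of the 100 brightest probes, 9 of them serpin probes, the median difference was -0.56 (range -0.92 to 0.28), and before scaling it was 0.09. The part of brightness in the lower serpin values was not tested. In the same decile as Serpina4-ps1, Serpina11 and Serpina3c, which were at least 2-fold lower, lay Serpinb6a at 0.43.

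**Figure D4:**
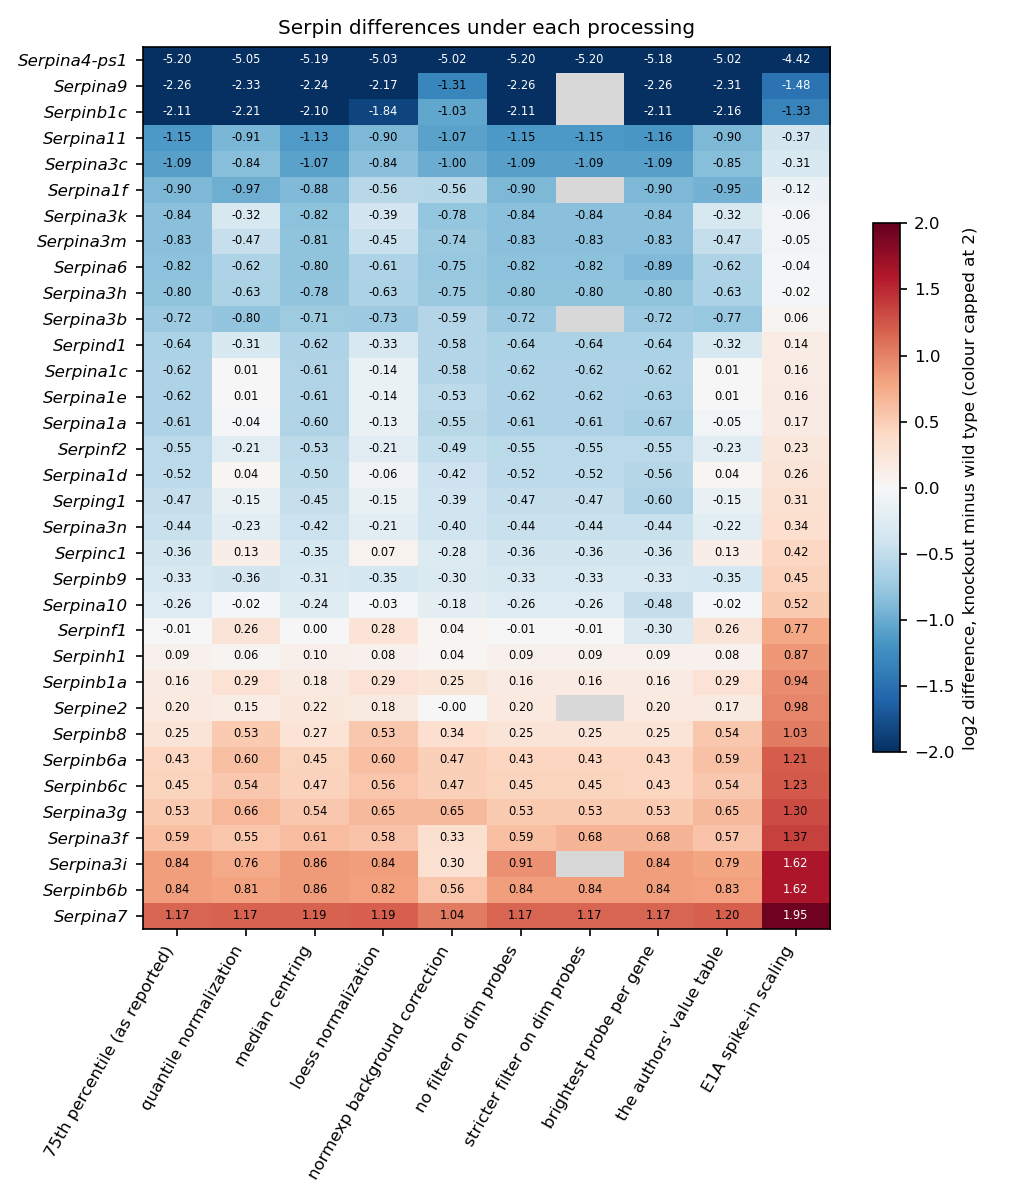
Log2 difference of the measured serpins apart from 1 not shown (rows) as reported and under each other processing (columns), blue below 0 and red above, with colour capped at 2; grey cells were removed by the stricter filter. Serpina4-ps1, Serpina9 and Serpinb1c are lower by over 1.5-fold in every column that has them and Serpina7 is higher in every one, while Serpina1a, Serpina1c, Serpina1d and Serpina1e lie near 0 under quantile normalization and in the authors' value table.

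Across the 8 other processing settings, spike-in scaling apart, 8 of the 15 lower genes stayed at least 1.5-fold lower wherever they were kept: Serpina11, Serpina3b, Serpina3c, Serpina3h, Serpina4-ps1, Serpina6, Serpina9 and Serpinb1c. Of the 4 higher genes Serpina7 did. Under the added spike-in scaling only 3 of the 8 did, Serpina4-ps1, Serpina9 and Serpinb1c.

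The proteases that serpins act on were described from lists. For this and the lists that follow, 13.4% of all measured genes were at least 1.5-fold lower and 8.42% higher. Of 27 target proteases of the plasma serpins on the array, 19 were measured on both arrays, 9 were at least 1.5-fold lower and 0 higher, with a median of -0.40. The greatest differences were those of F7, a clotting protease (-0.92), Klkb1, plasma kallikrein (-0.77), and Hgfac, the activator of hepatocyte growth factor (-0.73). The list of intracellular serpin targets had 12 genes, among them Prf1, which encodes a pore-forming protein and not a protease. Of the 12, 10 were measured, with 4 higher and 0 lower (median 0.11). These were led by the lysosomal cathepsins Ctsl, from 77.2 to 168 (1.12), and Ctsk (1.02), and by the lymphocyte protease Gzma (0.82).

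Of 16 cofactors and receptors of serpins, 14 were measured, of which 2 were higher and 5 lower (median -0.27). Plaur, the urokinase receptor, was at 0.91, and Plxdc2, a receptor of pigment epithelium-derived factor, at 0.85. Of 36 genes listed as protease inhibitors that are not serpins, 30 were measured. The median was -0.35, with 3 higher and 9 lower, among the latter Cpb2 (-0.59), which encodes a protease itself. Wfdc2 was at -1.49, Itih4, a plasma protein of the inter-alpha-inhibitor family, at -1.21 and Itih5 at 1.07.

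Of 26 genes that fold, move or degrade secreted serpins in the endoplasmic reticulum, all 26 were measured, 5 were lower and 0 higher, with a median of -0.44. Calr, the chaperone calreticulin, was at 26.2 and 11.1 (-1.24), with the disulfide isomerases Pdia3 at -0.81 and Pdia6 at -0.69. Of 23 transcription factors known at liver serpin genes, 22 were measured, 3 of them higher and 9 lower (median -0.45). Onecut1 was at 3.90 and 1.05 (-1.90), Foxa1 at -1.10 and Bcl6 at -1.05. No relation between these factors and single serpins could be tested with 2 arrays. These counts use the same scaling as the serpins. Under quantile normalization the medians of the plasma targets and of the other inhibitors were -0.19 and 0.00075. Those of the endoplasmic reticulum genes and the transcription factors moved less, to -0.32 and -0.36. The spike-in scaling adds 0.78 to every difference.

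Marker genes of liver cell types also differed between the samples. Over all measured genes, 13.4% were at least 1.5-fold lower and 8.42% higher. As scaled here, all 7 hepatocyte markers on the array were below 0, as were 9246 of all 15385 measured genes. The markers had a median of -0.58 and a summed level of 2281 in the wild type and 1570 in the knockout. The 100 brightest probes of any kind had a median of -0.56, and of 0.09 before scaling, so the marker median is near that of bright probes. Albumin was at -0.52, in the range of the Serpina1 genes. Of 12 stellate cell and fibroblast markers, 9 were higher and 1 lower (median 0.91), with sums of 48.9 and 72.9. Of 10 macrophage markers, 5 were higher and 0 lower, with sums of 73.9 and 95.9. Of 8 neutrophil markers, 6 were measured and 5 lower, with sums of 10.5 and 6.08. The sixth, Ly6g, was at 0.08, and Mpo and Ngp were well above background on neither array.

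Of 7 bile duct markers, 4 were measured on both arrays and 3 of these were higher (sums 0.659 and 1.25). Much of the sum was Spp1, at 0.260 and 0.689. Cftr went the other way, measured in the wild type only and at least 2.21-fold lower. Krt7 was measured in the knockout only and Epcam on neither array. Endothelial markers had 3 of 9 measured genes higher (sums 42.1 and 39.5). Lymphocyte markers had 1 higher and 1 lower of 5 measured (sums 21.7 and 18.2), and 4 were well above background on neither array. Of 7 adipocyte genes, Adipoq, Plin1, Lep and Retn were well above background on neither array. Cfd was at -5.07, Cidea at -3.12 and Fabp4 at 0.015 (sums 11.0 and 3.13). Pancreas genes summed to 3.88 and 3.44, platelet genes to 0.650 and 0.810 and mast cell genes to 0.495 and 0.406. The part of any of these in the serpin differences was not tested.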

How the data were processed

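Cy3-labelled cRNA made from total liver RNA was run on 1-colour Agilent mouse arrays, per the labels' protocols, with 1 array per group and both on 1 slide. The spot intensity values used are the processed signals that Agilent Feature Extraction wrote, background-subtracted and spatially detrended per the file headers. Its version is 9.5.1.1 in the submitters' processing notes and 10.7.1.1 in the headers. The deposited value table holds intensity values that are quantile-normalized as far as the sorted values show (medians of 45.9 in both columns, unequal at 221 ranks by at most 0.0417%), and it served as an alternative.

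Of 44397 spots, 43020 were not controls. Outlier spots (183 and 190) were left out, and 0 were saturated. Bright spots, among them those of Serpina1a, Serpina1c, Serpina3k and Serpinc1, were flagged as scaled up from a low-gain scan. A Serpina4-ps1 probe had this flag in the wild type only and the Serpinb8 probe in the knockout only. Signals were divided by the array's 75th percentile and log2-transformed, and copies were averaged. A probe was measured where at least 50% of its spots were well above background, and a gene is the mean of probes measured on both arrays. For a gene measured on 1 array the bound "at least N-fold" sets it against the higher of the dim probe and the lowest signal well above background on the other array (0.0593 in the wild type, 0.0368 in the knockout). Probes were named through RefSeq (26755 by accession, 4458 by symbol), and members kept the name in the files. Probe positions are those of the files, and no exon annotation was applied.

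Single arrays allow no test, and the number of arrays limits the precision. Genes named are the serpins measured on at least 1 array, and of each list the 3 members with the greatest difference, except that a gene of each kind is not reported here though it is in the counts; other list and marker genes were named after their values were seen. Members and lists were chosen with earlier results of these data known. The other settings were quantile, loess (span 0.3) and median scaling, normexp background correction (offset 50), no filter, a stricter filter (25th percentile), the brightest probe per gene and the value table. Spike-in scaling and the keratinocyte list were added after seeing the data. The counting script was checked on simulated arrays with known folds, which is no test of the groups. Python 3.11.15, R 4.3.3 and limma 3.58.1 were used.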

Additional observations from a re-analysis of the deposited data

How the results depend on the processing

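No paired analysis was possible because each group had 1 array, and for the same reason no replicate could be left out. The count of serpins at least 1.5-fold lower, 15 as reported, was 9 under quantile normalization, 8 under loess normalization, 9 in the authors' value table and 31 of 61 with no filter on dim probes. The count of higher genes, 4 as reported, was 2 with normexp background correction. The median of -0.47 came to -0.023 under quantile normalization and in the value table, -0.14 under loess normalization and -0.61 with no filter. The medians of all genes in these settings were -0.032, -0.021, 0.0045 and -0.31, so under quantile normalization and in the value table the 2 medians were about equal. The share of lower genes stayed larger among serpins. Of all 15385 genes, 1842 were lower under quantile normalization, 1461 under loess normalization and 1755 in the value table, beside 9, 8 and 9 of 35 serpins. With no filter 11307 of 30152 genes were lower. Under spike-in scaling, added after seeing the data, 13 serpins were higher and 3 lower, and the median turned to 0.31, while 8946 of 15385 genes were higher, 209 lower and their median was 0.67. That scaling adds 0.78 to every difference. Among serpins called at 1.5-fold it reversed Serpina1a (0.17), Serpina1c (0.16), Serpina1e (0.16), Serpina3b (0.056) and Serpind1 (0.14). Quantile normalization reversed Serpina1c (0.012) and Serpina1e (0.0090) among these, as did the value table (0.012 and 0.0090). Serpins under 1.5-fold changed sign too: Serpina1d, Serpinc1 and Serpinf1 in both of these settings, and under spike-in scaling these and Serpina10, Serpina3n, Serpinb9, Serpinf2 and Serping1. Median centring, the stricter filter (28 genes kept) and the brightest probe per gene kept both counts within 1.5 times. Serpins near background, such as Serpina9, Serpina1f and Serpinb1c, have differences that depend on the background correction.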
